A study of Mus musculus with 4 samples.

Results

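Dense clusters of distal open chromatin were described in SMC, the SCLC cells that the study defines by their ability to metastasize. The lines were sorted by FACS from primary lung tumors of *RP* mice, SMC as cells with NCAM-hi and CD44-lo/- staining and non-SMC as cells with NCAM-lo and CD44-hi staining. In these mice *Rb1* L/L and *Trp53* L/L were deleted in the lung by intratracheal Ad-CMV-Cre, a virus whose promoter is not restricted to a cell type, on a mixed background of C57Bl/6, Balb-c and S129. All lines, of either type, carried both deletions and were grown untreated in RPMI1640 with serum. ATAC-seq was performed on 2 SMC lines and 2 non-SMC lines with 1 library each, so a line is the replicate and the ages of the mice are not given in the labels used here. Merging all peaks that shared at least 1 base gave 357556 regions on chromosomes 1 to 19 and X. A region was called SMC-only when both SMC lists and neither of the non-SMC lists had a peak there, and distal when its midpoint was more than 3 kb from the transcription start site (TSS) of every protein-coding gene. Of 321756 distal regions, 14128 (4.39%) were SMC-only. The genome was then divided into fixed bins of 100 kb, and the 1669 SMC-only distal regions in bins that held at least 4 of them were taken as members. They made up 11.8% of the SMC-only distal regions and lay in 371 of 26350 bins (1.41%). The members were selected on the presence and absence of peaks in the 4 lists, so their pattern over the 4 lines is a description and was not tested. With 2 lines of each type, the smallest p of a two-sided exact permutation test would be 0.333. Where a pair of values is given for a type, line 1 comes first.

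ATAC-seq reads open chromatin from the places where a transposase can insert into DNA. Open regions far from a TSS are often enhancers, and genes that fix the identity of a cell tend to have several of them within a short distance, which are called enhancer clusters. In neuroendocrine SCLC this identity is set by factors such as INSM1 and NFIB and by bHLH factors, which bind E-boxes, whereas AP-1 and TEAD motifs are typical of open regions in mesenchymal and adherent cells. Openness alone does not show that a region acts on a gene, and the gene named beside a region is the nearest or a nearby one.

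To show what such regions look like, the sequence at the summit of the strongest member is given for 7 of the 8 bins that held the most members. Each is the + strand of mm10 (GRCm38, RefSeq) from 100 bases before to 100 bases after the summit. Capitals mark matches on either strand to the palindromic E-box CAGCTG, to the E-box of NEUROD1 and related factors, which is CAGATG, to a SOX core, written ACAAAG in its first form and ACAATG in its other form, or to the short site of nuclear factor I, which is TTGGCA. The first pair comes from neighbouring bins at *Mycl*, at chr4:123005644-123005844 and chr4:123153071-123153271, and the others lie at chr2:147974884-147975084, chr12:28817438-28817638, chr11:11855149-11855349, chr12:33015140-33015340 and chr7:107695769-107695969. The *Foxa2* window held 5 marked matches, the *Eipr1* window 4 and the *Cyb5r2* window 0.
Mycl: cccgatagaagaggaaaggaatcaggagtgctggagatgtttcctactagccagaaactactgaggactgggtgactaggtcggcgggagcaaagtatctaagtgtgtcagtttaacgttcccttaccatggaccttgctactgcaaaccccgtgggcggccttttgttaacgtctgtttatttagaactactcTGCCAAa
Ppie: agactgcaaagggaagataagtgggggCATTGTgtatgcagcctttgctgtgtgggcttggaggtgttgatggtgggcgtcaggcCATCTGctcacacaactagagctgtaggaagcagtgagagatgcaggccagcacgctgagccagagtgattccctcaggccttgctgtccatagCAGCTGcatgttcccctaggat
Foxa2: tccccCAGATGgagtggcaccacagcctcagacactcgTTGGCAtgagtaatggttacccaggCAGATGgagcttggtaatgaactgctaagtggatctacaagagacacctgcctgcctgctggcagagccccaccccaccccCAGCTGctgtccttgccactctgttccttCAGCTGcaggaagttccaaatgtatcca
Eipr1: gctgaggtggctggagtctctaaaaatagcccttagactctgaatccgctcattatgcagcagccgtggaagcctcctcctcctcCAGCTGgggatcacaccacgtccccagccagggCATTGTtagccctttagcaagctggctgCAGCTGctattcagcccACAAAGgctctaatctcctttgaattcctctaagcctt
Ddc: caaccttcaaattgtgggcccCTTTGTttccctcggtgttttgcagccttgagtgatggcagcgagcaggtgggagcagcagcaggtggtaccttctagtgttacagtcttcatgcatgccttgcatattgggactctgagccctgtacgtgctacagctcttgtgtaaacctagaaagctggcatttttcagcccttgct
Sypl: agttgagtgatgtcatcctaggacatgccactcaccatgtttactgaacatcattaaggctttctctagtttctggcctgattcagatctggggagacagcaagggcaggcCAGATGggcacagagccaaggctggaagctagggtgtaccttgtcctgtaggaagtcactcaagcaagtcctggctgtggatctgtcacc
Cyb5r2: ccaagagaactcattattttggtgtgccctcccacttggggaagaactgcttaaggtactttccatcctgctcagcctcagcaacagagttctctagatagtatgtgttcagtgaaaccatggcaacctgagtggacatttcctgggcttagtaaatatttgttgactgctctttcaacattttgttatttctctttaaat

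For 4 genes of the neuroendocrine and neural lists, the strongest member within 100 kb is shown in the same way. It lay 74146 bp downstream of the *Insm1* TSS in an intron (chr2:146295841-146296041), 22275 bp upstream of *Chga* between genes (chr12:102532646-102532846), 41417 bp downstream of the *Nfib* TSS in an intron (chr4:82664052-82664252) and 45379 bp upstream of *Sox1* between genes (chr8:12349958-12350158). The *Insm1* and *Chga* windows each held 1 SOX core. The *Nfib* window held 0 marked matches, and in the *Sox1* window a CAGCTG and a short site of nuclear factor I overlapped at the first bases.
Insm1: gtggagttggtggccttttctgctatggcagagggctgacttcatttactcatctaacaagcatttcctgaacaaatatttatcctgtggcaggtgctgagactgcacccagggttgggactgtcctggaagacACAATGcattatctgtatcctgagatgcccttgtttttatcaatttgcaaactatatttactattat
Chga: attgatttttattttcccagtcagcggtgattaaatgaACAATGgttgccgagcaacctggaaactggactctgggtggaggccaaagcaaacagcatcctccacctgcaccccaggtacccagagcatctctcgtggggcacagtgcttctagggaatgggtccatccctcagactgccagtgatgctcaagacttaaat
Nfib: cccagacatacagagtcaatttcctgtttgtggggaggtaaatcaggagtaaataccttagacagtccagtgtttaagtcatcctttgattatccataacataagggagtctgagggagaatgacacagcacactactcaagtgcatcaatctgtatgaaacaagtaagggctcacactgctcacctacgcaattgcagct
Sox1: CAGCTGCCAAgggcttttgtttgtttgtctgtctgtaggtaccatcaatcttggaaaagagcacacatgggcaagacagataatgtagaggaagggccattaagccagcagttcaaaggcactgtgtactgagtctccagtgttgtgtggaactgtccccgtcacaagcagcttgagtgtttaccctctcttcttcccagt

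Most dense bins only just met the limit. Of the 371 bins, 260 held 4 members, 79 held 5, 18 held 6 and 9 held 7. Above this there were 2 bins with 8, 1 with 9, 1 with 15 and 1 with 23. Just outside the limit, 780 bins held 3 regions each. The regions in bins with 3 had a median height at the 72.3 percentile of the SMC line 1 list and the 81.6 percentile of the SMC line 2 list, and those in bins with 4 at 70.0 and 81.4, where the percentile ranks the fold enrichment of a peak among all peaks of the same library. At the other limit, 15 members lay between 3 and 4 kb from a TSS, the nearest at 3021 bp. Regions with the opposite pattern, open in both non-SMC lines only, were more often clustered, as 8338 of 24239 (34.4%) lay in 1703 bins with at least 4.

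**Figure D1:**
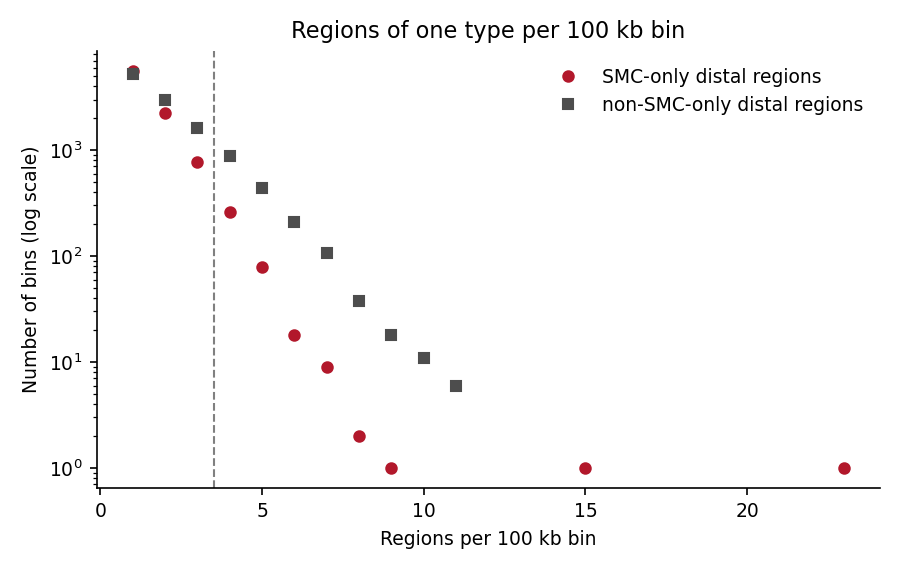
Number of 100 kb bins (log scale) against the number of SMC-only (circles) or non-SMC-only (squares) distal regions in the bin, with the limit of 4 as a dashed line. SMC-only counts fall from 5621 bins with 1 region to 260 with 4, and the bins with 15 and 23 stand apart from the rest.

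Within a bin, neighbouring members were a median of 12200 bp apart, with a range from 293 to 85700 bp, and the first and last were a median of 60200 bp apart. The nearest protein-coding TSS was a median of 68.1 kb away, against 58.4 kb for the 12459 SMC-only distal regions outside dense bins, called scattered here, and 29.2 kb for distal regions open in all 4 lines. More than 100 kb away were 35.8% of members and 36.2% of scattered regions, and the upper quartile was 135 kb for members and 160 kb for scattered regions. Introns held 862 members (51.6%), exons 67 (4.01%) and intergenic sequence 740 (44.3%). In the same order the shares were 44.5%, 8.04% and 47.4% of all merged regions. They were 50.1%, 2.83% and 47.0% of the non-SMC-only distal regions in dense bins, so the intron share was near that of this set. Of the bins, 236 (63.6%) contained no protein-coding TSS, against 59.4% of all bins. In the member bins the non-SMC lines also had peaks elsewhere. A non-SMC-only region was found in all but 147 of them (39.6%), a share that was not counted over all bins. Dense in non-SMC-only distal regions as well were 45 member bins (12.1%), against 1703 of all 26350 bins. The median number of peaks per member bin was 9 and 14 in the SMC lines and 6 and 7 in the non-SMC lines. No peak of non-SMC line 1 lay in 22 of these bins and none of non-SMC line 2 in 13.

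Members were peaks of upper middle height in both lines, and most rested on few reads. Their median fold enrichment over the local background was 4.12 in SMC line 1 and 4.29 in SMC line 2. This put them at a median percentile of 70.0 (quartiles 43.1 and 85.1) in SMC line 1 and 79.3 (54.6 and 90.2) in SMC line 2, whereas scattered regions were at 72.4 and 82.2. The medians of clustered regions were thus not above those of scattered ones in either line. The pileup at the summit was a median of 6 reads in SMC line 1 and 14 in SMC line 2. These are low counts, and a q-value under 0.05 was given to 67.6% of the members in SMC line 1 and 80.5% in SMC line 2. A -log10 q of at least 5 was reached in both lines by 308 members (18.5%). The lines differed in depth, with a lowest background of 0.456 and 1.54 reads in SMC and of 1.49 and 0.639 reads in non-SMC, and the absence of a peak in a non-SMC list is no proof that a region was closed there. By the rule, each member held a peak of both SMC lines in 1 merged region, with a median width of 371 bp. Their summits therefore had to lie close. They were a median of 55 bp apart and within 100 bp for 1218 members (73.0%), against 55 bp and 72.6% for scattered regions. The percentiles of a member in both lines had a Spearman's rho of 0.558 across the 1669 members, which share libraries and are not independent, and of 0.557 across scattered regions.

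The 10 members with the highest mean percentile were at the very top of both lists. The first lay in an intron of *Robo1*, the receptor for the SLIT axon guidance cues, 651170 bp downstream of its TSS (chr16:72959076-72959876), with a fold enrichment of 14.2 in SMC line 1 and 22.4 in SMC line 2. The second was in an intron of *Atp8a1*, a phospholipid flippase, with 11.6 and 17.2. A member in an intron near *Ddc*, the enzyme that makes dopamine and serotonin and a classical neuroendocrine marker, had 11.9 and 14.4. No line had a peak within 1 kb of the annotated TSS of *Robo1* or *Ddc*. Other members lay nearest to *Hdgfl1*, which was the nearest gene of 2 of the 10, *Tiam1*, which encodes a RAC1 exchange factor, *Tll1* and *Dmrta2*. The members nearest to *Hdgfl1* were 614983 and 650620 bp away, so these names mark positions and not targets. All but *Ddc* were in bins with 4 or 5 members, and at least 1 of the CAGCTG and SOX motifs was found in 7 of the 10 windows. Of all members, 8.57% had both motifs, 12.8% CAGCTG only and 32.5% SOX only, against 3.44%, 10.2% and 23.3% of all merged regions.

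The densest stretch was of another kind. It consisted of 4 consecutive bins on chromosome 4 (chr4:122900001-123300000) with 49 members around *Mycl*, which encodes L-MYC, a driver in part of SCLC. The bin with *Mycl* and *Trit1*, a tRNA modifying enzyme, held 23 members and the next bin, with *Bmp8b*, *Oxct2b*, *Ppie* and *Hpcal4*, held 15. Their peaks were low. In the bin with 23 members the median percentile was 0.16 in SMC line 1 and 0.231 in SMC line 2, and the fold enrichment did not exceed 3.27 and 2.62. The bin with 15 had medians of 0.145 and 0.17. In the same bins the local background against which MACS2 sets a peak was far above the lowest of the library. The ratio of these was 34.5 and 28.2 in the SMC lines for the bin with 23 members, and 1.22 and 1.11 in the non-SMC lines. For the bin with 15 it was 42.2 and 39.8 in SMC and 1.20 and 1.23 in non-SMC. The bins on either side were raised in SMC line 1 only, at 35.2 and 38.7, with 1.80 and 1.21 in SMC line 2. The part of the raised background in the number of members was not tested.

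A median ratio of at least 5 in an SMC line was found in 9 member bins, which held 72 members (4.31%), against 0.321% of scattered regions. In the non-SMC lines 0 member bins reached it. Besides the *Mycl* stretch these were a bin with *Id1* and *Bcl2l1* (7.63 in SMC line 1 and 2.35 in SMC line 2), 1 in *Prex1* (12.2 and 2.41), 1 upstream of *Nfia* (25.5 and 1.01), 1 with *Ifnlr1* (1.24 and 42.2) and 1 with *Asap3*, *Tcea3* and *Zfp46* (1.77 and 63.3). The last 2 were thus raised in SMC line 2 only, and 7 of the 9 bins lay on chromosome 4. Members in raised bins had a median percentile of 2.95 in SMC line 1 and 0.265 in SMC line 2. Without them 1597 members remained in 362 bins, with medians of 72.1 and 81.1. By the same limit 43 of all 26350 bins were raised, and 9 of these were member bins.

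**Figure D2:**
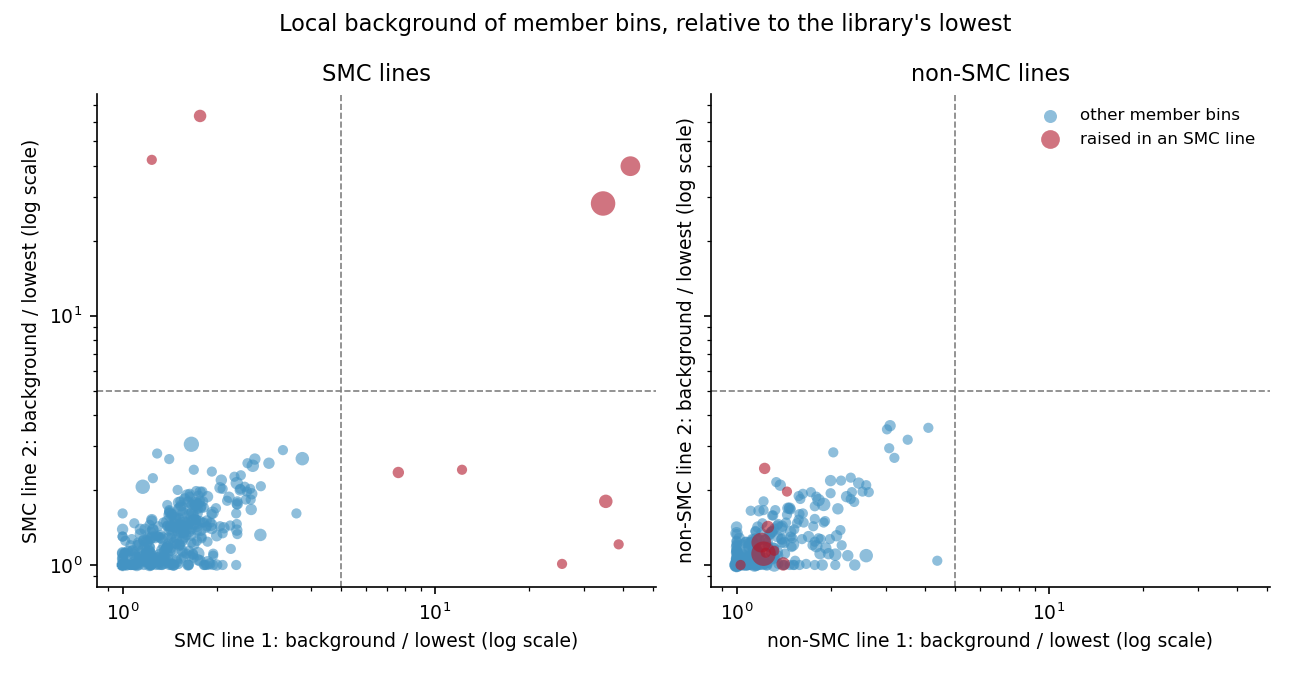
Median local background of each member bin divided by the lowest background of the library, line 1 on the x axis and line 2 on the y axis (both log scales), for SMC (left) and non-SMC (right), with the point area proportional to the number of members and the ratio of 5 dashed. Only the bins with 23 and 15 members are above 5 in both SMC lines, 7 are above it in 1 SMC line and 0 in a non-SMC line.

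Members were unevenly spread over the chromosomes. Chromosome 4 had 234 members, chromosome 12 had 192 and chromosome 8 had 143. The share of SMC-only distal regions that lay in dense bins was 23.0% on chromosome 4, 23.9% on chromosome 12 and 17.1% on chromosome 8, against 7.08% on chromosome 10 and 7.69% on chromosome X. Without the raised bins chromosome 4 still had 171, while chromosomes 8 and 12 kept all of theirs. Peaks of any kind were also unevenly spread. Chromosome 12 carried 4.15% and 4.26% of the peaks of the SMC lines and 2.41% and 2.95% of those of the non-SMC lines. Chromosome 4 carried 6.92% and 5.93% in SMC and 4.86% and 4.63% in non-SMC, so for both chromosomes the SMC lines were above the non-SMC lines. For chromosome 8 the ranges overlapped, with 7.55% and 5.31% in SMC and 5.87% and 6.26% in non-SMC. On chromosome 10, where the SMC lines were above as well (4.61% and 5.06% against 3.36% and 3.33%), members were few. The part of these chromosome-wide differences in the dense bins was not tested. The 569 members on chromosomes 4, 8 and 12 and the 1100 on the others had a CAGCTG in 21.3% and 21.5% and a SOX core in 40.6% and 41.3%.

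Outside the raised stretches, the densest bins lay by genes of varied function. A bin over *Eipr1*, on chromosome 12, held 8, from the 19.7 to the 96.6 percentile in SMC line 1 and from 8.81 to 94.1 in SMC line 2. A bin over *Ddc* and *Fignl1* held 7, and with median percentiles of 87.4 and 97.7 its members were among the strongest. All 7 lay in introns, from 7.70 to 43.0 kb from a TSS. The background ratio of this bin was 1.77 and 1.39 in the SMC lines and 2.6 and 1.09 in the non-SMC lines. Other bins with 7 overlapped *Cdhr3*, *5330417H12Rik* and *Ppfibp2*, *Hivep3*, *Mcf2l*, and *Chaf1b* and *Cldn14*, or had their nearest TSS at *Prok2*, a secreted prokineticin, and *Bcor*, a corepressor. The 6 bins with 6 members among the first 20 lay in or nearest to *Ttll5*, *Magi2* and *Phtf2*, *F930015N05Rik* and *Elac2*, *Dpp6*, *Cavin4*, and *Fyn* and *Traf3ip2*. These were taken from the 18 bins with 6 members by the highest mean percentile, so their heights reflect that choice. Their median percentiles were 69.5 to 86.2 in SMC line 1 and 81.0 to 93.1 in SMC line 2. *Dpp6* is an auxiliary subunit of neuronal potassium channels, and *Magi2* a scaffold of synapses and junctions.

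*Foxa2*, a pioneer factor of endoderm and lung epithelium, was the nearest gene of 12 members in 2 adjoining bins (chr2:147800001-148000000) with no overlapping protein-coding gene. They began 65.8 kb downstream of its TSS and ended at 214 kb. The percentile ranged from 38.9 to 92.3 with a median of 77.6 in SMC line 1 and from 17.9 to 98.9 with a median of 85.2 in SMC line 2. The strongest, 71.9 kb downstream, had a fold enrichment of 6.14 in SMC line 1 and 12.1 in SMC line 2, and its sequence is shown above. The *Foxa2* promoter itself had a peak in all 4 lines. The related *Foxa1*, named after its values were seen, had 8 members within 250 kb, from 45.1 kb upstream to 144 kb downstream, and a promoter peak in all 4 lines as well. Thus at both genes the promoter was open in SMC and non-SMC. That the members around it were called in SMC only follows from the rule that chose them.

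**Figure D3:**
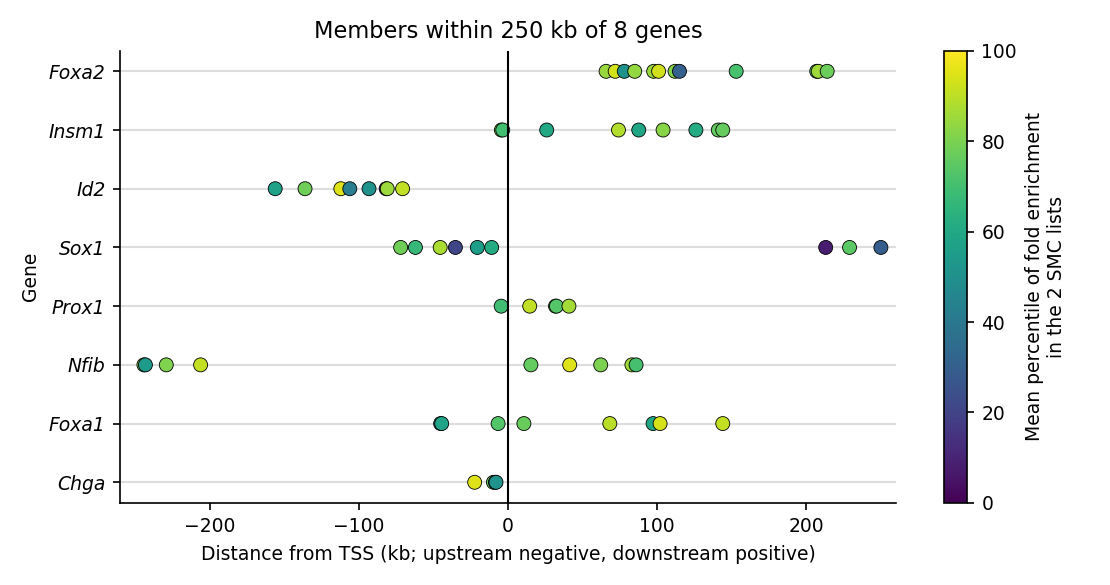
Members within 250 kb of the TSS of 8 genes, at their distance from the TSS in kb (upstream negative), coloured by the mean percentile of fold enrichment in both SMC lists. All *Foxa2* members lie 65.8 to 214 kb downstream, all *Id2* and *Chga* members upstream, and *Nfib* members fall in a group from -244 to -206 kb and another from 15.4 to 85.9 kb.

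Genes were then read by their roles. Of all 21755 protein-coding genes, 730 (3.36%) had a member within 100 kb of the TSS, and of the 280 genes on the lists 20 did. Among 8 neuroendocrine genes of SCLC these were 2. *Insm1*, a zinc finger repressor that promotes neuroendocrine differentiation, had 5, and *Chga*, the granule protein chromogranin A, had 4. The pair of members next to *Insm1* lay 4.40 and 3.48 kb upstream, with a fold enrichment of 5.21 and 4.09 in SMC line 1 and 4.72 and 3.69 in SMC line 2. All others were in introns of neighbouring genes downstream, and within 250 kb *Insm1* had 9. The 4 *Chga* members were packed between 22.3 and 8 kb upstream, and the farthest was the strongest, at 9.26 in SMC line 1 and 7.05 in SMC line 2. The promoters of both genes had a peak in the SMC lines only. The background ratio of the *Chga* bins was at most 2.48 and 1.83 in the SMC lines and 1.05 and 1.1 in the non-SMC lines. For *Insm1* it was at most 1.77 and 1.5 in SMC and 1.06 and 1 in non-SMC. These were under the ratio of 5 used for raised bins, but higher in SMC, and the part of this in the members was not tested. The other 6 had 0 members within 100 kb, among them the bHLH factor *Neurod1*, *Sox11*, *Nkx2-1*, the lung lineage factor known as TTF1, *Ncam1*, the sorting marker, and *Syp*, a synaptic vesicle protein. The nearest member to *Nkx2-1* was 239 kb downstream. Dense clustering was thus not a feature of all neuroendocrine genes.

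Of the 10 factors with the most targets in the SMC network of the study, 4 had a member within 100 kb. The study took this network from its own SMC and non-SMC samples, so the list is not independent of these lines. *Sox1*, a neural SOX factor, had 6, all upstream and between genes, with percentiles from 26.2 to 82.3 in SMC line 1 and from 14.8 to 94.0 in SMC line 2, and a promoter peak in both SMC lines only. *Id2*, an inhibitor of bHLH factors, had 4, at 70.6 kb upstream and beyond. The *Id2* promoter was open in all 4 lines. *Id1*, of the same family, had 5 and *Nfia* had 1, and these lay in bins of raised background in SMC line 1. Of the 10 factors of the non-SMC network, which include *Tead2*, *Prrx1*, *Nfe2l2* and *Myc*, 0 had a member within 100 kb. For so few genes this is near the 3.36% of all genes. In the nuclear factor I family, *Nfib*, a known driver of SCLC metastasis, had 5 members within 100 kb, all in introns between 15.4 and 85.9 kb downstream. Their percentiles were 62.8 to 93.9 in SMC line 1 and 59.3 to 95.6 in SMC line 2, and the background ratio of their bins was at most 1.24 in any line. A promoter peak at the annotated TSS was found in SMC line 2 only. *Nfic* and *Nfix* had 0.

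Among developmental factors, members were found at few genes. Of 30 neural homeobox and POU factors, *Prox1*, a regulator of progenitors, had 5 and *Six3*, a forebrain factor, had 4. The *Prox1* members ran from 4.52 kb upstream to 40.9 kb downstream and were high in both lines, at percentiles of 64.5 to 88.4 in SMC line 1 and 72.9 to 92.3 in SMC line 2. Those of *Six3* reached no more than 75.1 and 65.7. Of 17 neural bHLH and zinc finger factors there were 3, where *Insm2*, the paralog of *Insm1*, had 4 besides the 5 at *Insm1*, and *Neurog1*, named after its values were seen, had 2. *Sox1* was the only 1 of 16 SOX factors. A promoter peak was found in line 2 of each type at *Prox1* and in non-SMC line 1 only at *Six3*. At *Insm2* and *Neurog1* it was found in both SMC lines only.

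Genes of neuronal function were likewise mixed. Of 31 genes of synaptic vesicle release 2 had a member, among them *Syt7*, a calcium sensor of vesicle fusion that was named after its values were seen, with 3. *Chga* was the only 1 of 11 granins and prohormone processing genes. Of 30 channel genes 3 did. The calcium channel gene *Cacna1a* had 4, while the sodium channel genes *Scn2a* and *Scn3a*, which are neighbours with opposite strands, shared the same 4. The highest of these reached a fold enrichment of 6.13 in SMC line 1 and 8.03 in SMC line 2. A promoter peak was called in both SMC lines only at *Scn3a* and in no line at *Scn2a* or *Cacna1a*. Of 30 axon guidance genes 3 did, with 5 members at *Plxna2*, 4 at *Nrp1* and 3 at *Unc5a*, which was named after its values were seen. The *Plxna2* members, from the 62.4 to the 95.6 percentile in SMC line 1 and from 54.6 to 97.5 in SMC line 2, stood beside a promoter that had a peak in the non-SMC lines only. *Dscaml1* was the only 1 of 36 neural adhesion genes, and 0 of 30 neurotransmitter receptor genes had a member. Most lists were small, so they are given as counts, to be read beside the 3.36% of all genes.

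The sorted identity of the lines was checked at promoters. Of the 6 SMC markers, 5 had a promoter peak in SMC line 1, 6 in SMC line 2 and 2 in each non-SMC line. The 4 non-SMC markers *Cd44*, *Vim*, *Wwtr1* and *Yap1* all had one in both non-SMC lines, but also in SMC line 2, and 1 had one in SMC line 1. Of 10 immune, endothelial and fibroblast markers, 2 had one in each SMC line and 5 in each non-SMC line, and *Cd68* and *Pecam1* had one in the non-SMC lines only. None of these markers other than *Insm1* and *Chga* had a member within 100 kb. Of the 22 non-SMC and YAP/TAZ target genes 0 had one, against 3.36% of all genes, and for so few genes 0 is near that share. An SMC-only distal region of any kind lay within 100 kb of 14 of the 22, against 12517 of all 21755 genes. The part of other cells in the members was not tested.

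Promoters in the member bins were more often open in SMC. This uses the contrast that chose the members and is a description. The bins contained the TSS of 237 protein-coding genes, and a peak within 1 kb of it was found at 66.2% and 79.3% of them in the SMC lines and at 58.6% and 57.0% in the non-SMC lines. Both SMC lines were above both non-SMC lines. SMC had a mean of 72.8% ± 9.25 (SD, n = 2) and non-SMC a mean of 57.8% ± 1.19 (SD, n = 2), a difference of 15.0 percentage points against an SD between lines of 6.59. In bins with 1 to 3 SMC-only distal regions the difference was 3.66 points against an SD of 3.92, and over all genes it was 1.94 against 3.11, where the lines of both types overlapped. A promoter peak in both SMC lines only was found at 23 of the 237 genes (9.70%), against 3.20% of all genes, and in both non-SMC lines only at 5 (2.11%), against 2.21%. The 23 included *Insm1*, *Insm2*, *Chga*, *Sox1*, *Scn3a*, *Rtn1*, a reticulon of neuroendocrine cells, *Fxyd6*, *Pnmal1*, *Pnmal2* and *Ric3*, a chaperone of acetylcholine receptors. *Bmp8b* and *Oxct2b* among them lay in the raised *Mycl* stretch. The 5 were *Plxna2*, *Sfrp5*, *Nol12*, *Pwwp2b* and *Zfp217*.

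**Figure D4:**
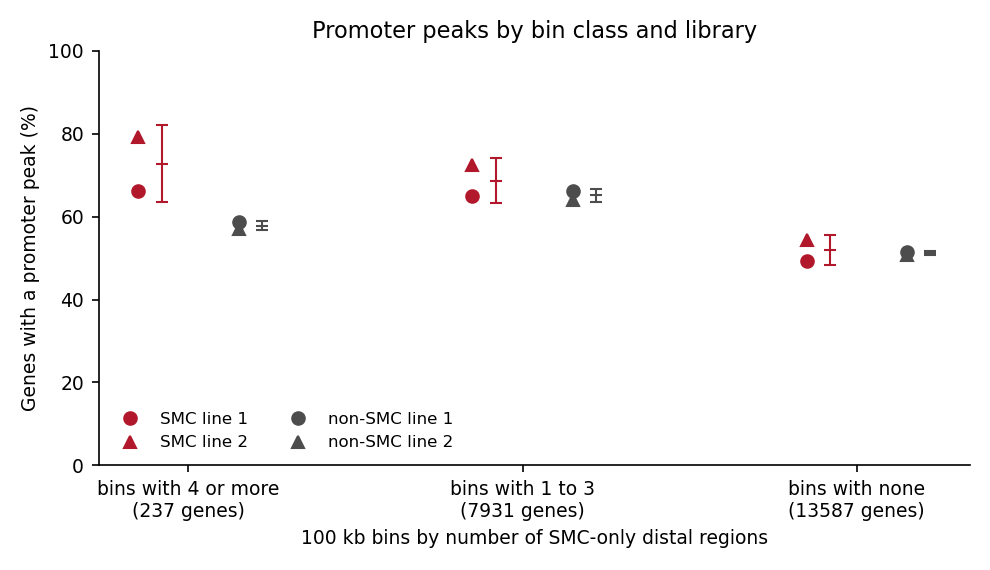
Share of genes with a peak within 1 kb of the TSS (%) in each line, for genes in bins with at least 4, 1 to 3 or no SMC-only distal regions. Symbols are lines, and bars are the mean ± SD of 2 lines. In the first class SMC is at 66.2% and 79.3% and non-SMC at 58.6% and 57.0%, and in the other classes SMC line 1 is not above both non-SMC lines.

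Motifs were counted within 100 bp of the summit of the higher peak, on both strands, with 95% Wilson intervals that cover counting error only. A SOX core, in either form, was found in 41.0% of members (38.7% to 43.4%), 26.7% of all merged regions and 27.4% of the dense non-SMC-only distal regions. CAGCTG was found in 21.4% (19.5% to 23.4%), 13.7% and 14.8% in the same order. CAGATG, the E-box of NEUROD1 and related factors, was at 20.7%, 18.4% and 19.6%. TTGGCA was at 17.2%, 12.8% and 16.3%, while the full palindrome of nuclear factor I occurred in 1 member. TGTTTAC, bound by FOX factors, was at 8.63% (7.37% to 10.1%), 3.64% and 3.56%. A CAGCTG and a SOX core occurred together in 143 members (8.57%), against 3.44% of all regions. These shares were close to those of scattered SMC-only regions, which had a SOX core in 42.7%, CAGCTG in 21.5% and TGTTTAC in 10.1%, within or at the edge of the intervals of the members.

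Motifs of AP-1, TEAD and RUNX were low in members and in scattered SMC-only regions alike. TGACTCA, the AP-1 site, whose other strand reads TGAGTCA, was found in 3.42% of members (2.65% to 4.40%), 11.2% of all regions, 19.0% of distal regions open in all 4 lines and 46.2% of the dense non-SMC-only distal regions. GGAATG, bound by TEAD, the partner of YAP and TAZ, was at 10.4% in members, 12.6% in all regions and 20.1% in the dense non-SMC-only regions. TGTGGT, bound by RUNX, was at 14.5%, 18.4% and 30.3%. The CTCF motif was in 1.02% of members, 0.83% of all regions and 5.60% of distal regions open in all 4 lines. CACGTG, the E-box of MYC, was at 4.19% and 3.44%, TAATTA, a homeobox core, at 3.77% and 3.44%, and ATGCAAAT, the POU octamer, at 0.839% and 1.03% in members and all regions. The GC content of the windows was 50.1% ± 6.46 (SD over members), near the 49.0% of all regions, and 9.42% of their bases were masked as repeats, against 16.7%. The repeat share was not particular to members. It was 10.3% in scattered SMC-only, 10.2% in dense non-SMC-only and 7.01% in distal regions open in all 4 lines.

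**Figure D5:**
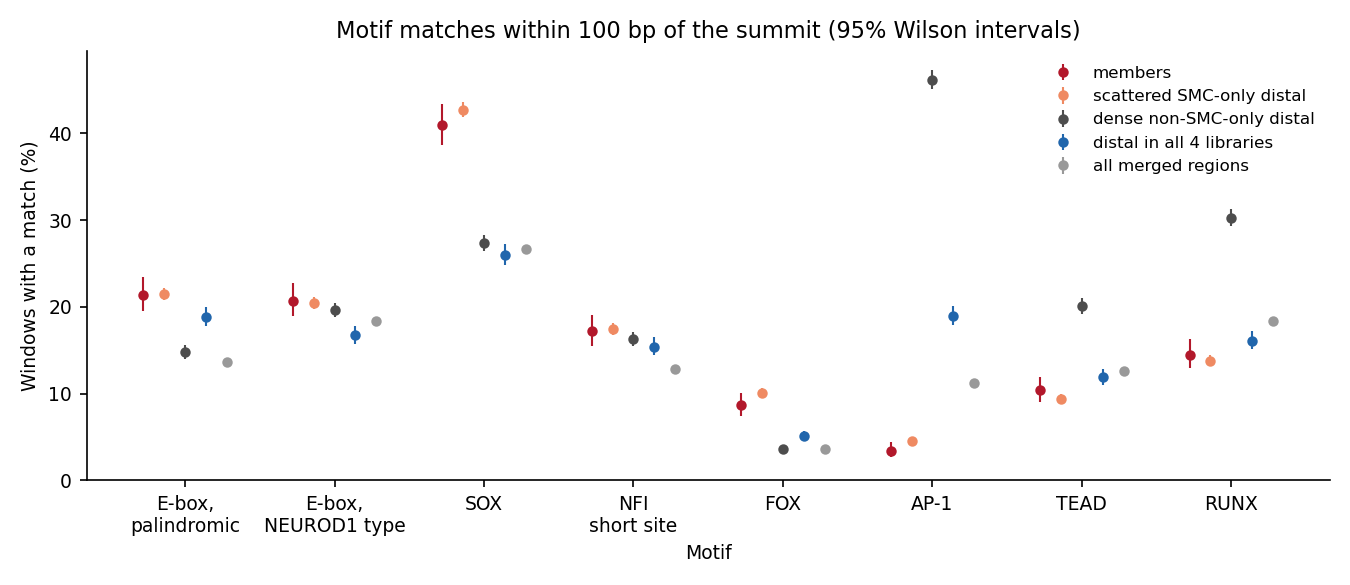
Share of windows with each motif (%), with 95% Wilson intervals, in members, scattered SMC-only, dense non-SMC-only and shared distal regions and all merged regions. Members and scattered SMC-only regions lie close for the 8 motifs plotted, SOX is at 41.0% in members and 27.4% in dense non-SMC-only regions, and AP-1 at 3.42% and 46.2%.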

How the data were processed

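ATAC-seq was measured in 2 SMC and 2 non-SMC lines. Per the labels and methods, the authors mapped reads to mm10 with Bowtie2 2.3.4, removed duplicates with sambamba and called peaks in each library separately with MACS2 2.1.1, with settings not given in the sources used here. They deposited for each peak a fold enrichment (a ratio of pileup to local background), the -log10 of its p-value and q-value, and the summit. The score the authors deposited was not used. Fold enrichment depends on the depth of its library and was ranked within its list only. Pileup and background were recovered from fold enrichment and p-value, and this step and the merging were tested on simulated data. Genes are those of GENCODE M21, with the gene's 5′ end as TSS, and sequences are from GRCm38. The members, gene lists, motifs and rules were chosen with earlier results of these data known. The genes named are those at the 20 densest bins, list genes with at least 4 members within 100 kb or any number on the study's lists, and those at the 10 highest members, and genes outside this rule were chosen after their values were seen. A few of these genes are not reported here. The alternatives tried were a stricter q-value (-log10 q from 5 upward), equal list lengths, 50% overlap, shifted bins, every transcript's TSS, no raised bins, lines left out, line pairs, and other windows and summits. Python 3.11.15, numpy 2.4.6, pandas 2.3.3, scipy 1.17.1, pysam 0.24.0, samtools 1.23.1 and matplotlib 3.10.9 were used. Counts and intervals cover counting error only, and nothing was pooled.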

Additional observations from a re-analysis of the deposited data

How the results depend on the processing

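The members rest on many weak calls. When a -log10 q from 5 upward was required in all lists, 26 members remained in 6 bins. The promoter share difference was 0 percentage points, but it covers only the genes with a TSS in these 6 bins, whose number is not given. It was not computed with this limit for the original member bins. Of the 26 members, 23.1% lay in bins of raised background. A match to at least 1 of the 4 motifs marked in the sequences was found in 80.8% of them, against 69.7% of all members. That share was 48.7% with 50 bp and 90.5% with 250 bp on each side, since a longer window holds more matches. Equal list lengths, 50% overlap, every transcript's TSS and no raised bins kept the numbers of members and bins within 1.5 times. Bins shifted by 50 kb gave 1666 members in 373 bins, but 821 (49.2%) of the members were the same, and the promoter share difference was 8.23 points. The share in raised bins was 5.75% with a ratio of at least 3 and 2.88% for SMC line 2 alone. Leaving out each line gave 2142 to 94929 members and 469 to 12357 bins. The promoter differences of these runs were taken in the original 371 member bins only, and were 8.44 to 21.5 points. The top of the first ranges is the run without SMC line 1, and without SMC line 2 there were 37280 members in 6099 bins and without non-SMC line 1 there were 2562 in 568. The labels give a line number only, and whether lines of the same number share an origin is not stated. The differences in peak presence between lines of a type had a correlation of -0.012 across 357556 regions. This cannot decide it, because a region with a peak in 1 line alone has a difference of 0 in the other type. Such regions were 13.1% (SMC line 1), 28.4% (SMC line 2), 15.6% (non-SMC line 1) and 19.7% (non-SMC line 2) of all. With pairing by number as a block, pair 1 alone gave 40775 members in 6517 bins and pair 2 alone 103246 in 12807. The means over pairs were 72010.5 members and 9662 bins. In the original member bins the promoter difference was 7.59 points for pair 1, 22.4 for pair 2 and 15.0 as the mean over pairs. Without raised bins, an alternative chosen after seeing the data, 18 in place of 20 list genes had a member.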
